A study of Homo sapiens with 20 samples.

Results

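The response of BEAS-2B cells to a 3-day nickel exposure was measured by RNA sequencing in 6 of the 20 libraries of the study. Members were chosen by title: the 2 libraries titled Ni_3D (Ni_3D 1 and 2) are set against the 4 libraries titled Control_3D (Control_3D 1 to 4). BEAS-2B is a line of human bronchial epithelial cells immortalised with viral genes, and all 20 libraries come from it. The study asked how nickel changes such cells in the short and long term. Its other libraries hold cells washed free of nickel, 6-week exposures, their controls and single-cell clones, none of which belong to either group here. Nickel was given as NiCl2 in culture medium. The labels give no dose for the 3-day exposure. They do not say how the control cultures were handled or whether replicates came from separate cultures. The spread was estimated over all libraries of the study that are not clones, 14 in the fullest fit. The p-values therefore measure the spread between replicates over all those groups, which may be technical.

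Cells sense oxygen through prolyl hydroxylases of the EGLN family, which use iron, oxygen and a citric acid cycle metabolite to mark the alpha subunits of hypoxia-inducible factors (HIF) for destruction by the VHL ubiquitin ligase. Nickel ions are known to interfere with such iron-dependent dioxygenases and to stabilise HIF1A protein in cultured cells. Stabilised HIF pairs with ARNT, binds the core letters ACGTG or GCGTG, and switches on genes of glycolysis, acid export, blood vessel growth and collagen modification. Metallothioneins, small proteins that bind metals, are the other classical response to metal exposure.

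Depth ran from 48122350 to 88848786 reads in the nickel libraries and from 8609243 to 45764825 reads in the controls, and the shallowest control gives the least precise values of low genes. Levels are given as CPM, read counts scaled to a fixed library total, after TMM normalisation, which allows for differences in composition. Controls fell into pairs: the counts of Control_3D 3 and 4 differed least (chi-square per degree of freedom 11.9), and those of Control_3D 1 and 2 came next (30.9). No pair agreed within counting error. The measure grows with depth and Control_3D 4 was the shallowest, so the order of these pairs is not a ranking of likeness. Control_3D 1 and Ni_3D 1 shared a set of luminal epithelial transcripts that the other 4 libraries lacked or nearly lacked. The oestrogen receptor gene ESR1 was at 10.8 and 0 CPM in nickel against 3.52, 0, 0 and 0 CPM in controls, and the luminal regulator GATA3 at 40.8 and 0.0713 CPM in nickel against 16.6, 0.0980, 0.230 and 0 CPM in controls. The oestrogen-responsive gene GREB1 was at 65.5 and 2.65 CPM in nickel against 34.8, 0.441, 1.11 and 0.352 CPM in controls. Of 18 luminal markers in the files 16 were tested. The summed level of the 18 was 1074 and 879 CPM in the nickel libraries and from 869 to 1051 CPM in the controls, most of it KRT8 and KRT18. ESR1 and AGR2 were at 0 in Ni_3D 2 and in Control_3D 2, 3 and 4. Results are therefore given in 3 fits, which differ in the 3-day libraries they hold. The all-library fit holds all 6. The fit without replicates 1 leaves out Control_3D 1 and Ni_3D 1. The fit against controls 3 and 4 has Control_3D 3 and 4 as the only control. Each fit also holds the other libraries that are not clones, which add to the estimate of spread. In the fit without replicates 1 the single nickel library is assumed to vary like the other groups. Where a library is named as left out below, it was left out alone.

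Keratins of simple epithelium were present, with KRT8 at 412 and 448 CPM in nickel against 505, 532, 538 and 640.2 CPM in controls and KRT18 at 192 and 257 CPM in nickel against 193, 233, 203 and 263 CPM in controls. Of 9 basal airway markers TP63, KRT5, KRT14, KRT15 and DAPL1 were under 1 CPM in all 6 libraries. The other 4 were not, and the summed level of the 9, most of it KRT17 and ITGA6, was 363 and 167 CPM in the nickel libraries and from 50.1 to 256 CPM in the controls. Of 8 secretory and ciliated markers in the files 7 were under 1 CPM, and the other was the tubulin TUBB4B, at 1618 and 2060.5 CPM in nickel against 1711, 1524, 1203 and 1269 CPM in controls. Among 9 alveolar markers the surfactant genes and NAPSA were under 1 CPM. The summed level of the 9, most of it ABCA3, was 89.9 and 86.1 CPM in the nickel libraries and from 53.2 to 69.0 CPM in the controls, so nickel was above every control. All 5 alveolar markers tested had positive log2 fold changes (medians 1.18, 1.49 and 1.47 in the 3 fits). With all libraries edgeR called 0 of the 5 and DESeq2 3, and edgeR's unadjusted p was under 0.05 in 3. Over all 14927 genes tested, DESeq2 called 923 higher, and edgeR's unadjusted p was under 0.05 in 3633. All 7 endothelial markers were under 1 CPM, and among 8 leukocyte markers CD14 and CD68 alone reached 1 CPM. The summed level of 10 fibroblast markers was 1891 and 914 CPM in the nickel libraries and from 2397 to 5069.5 CPM in the controls, and 6 of the 10 were under 1 CPM throughout. The summed level of 9 neuronal markers, most of it the glycolytic gene ENO2, was 884 and 741 CPM in the nickel libraries and from 228 to 314 CPM in the controls, with 5 of the 9 under 1 CPM. The part of these markers in the results below was not tested.

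**Figure D1:**
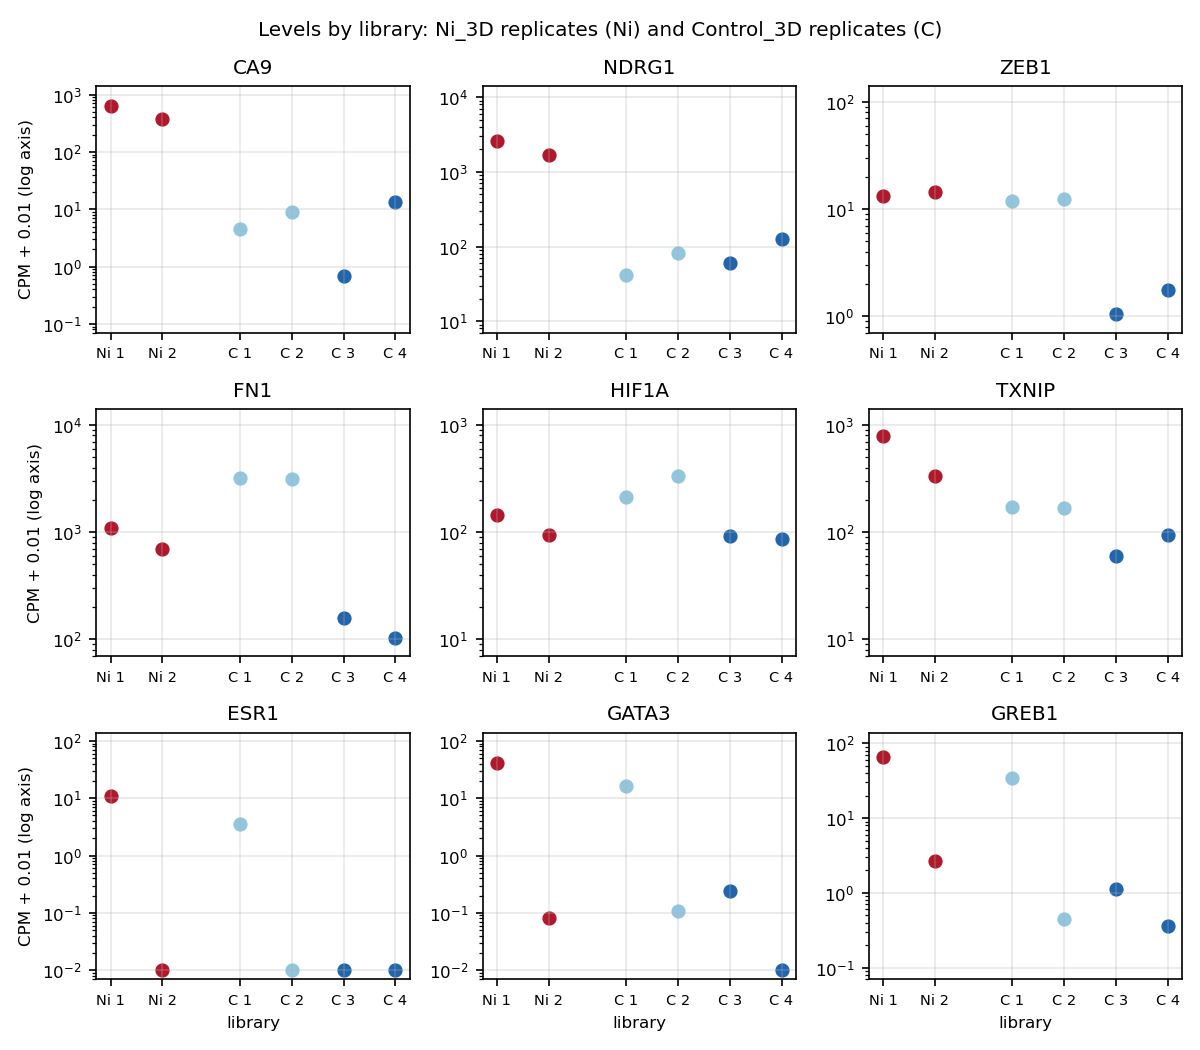
Level of 9 genes in each library (CPM + 0.01, log axis), with Ni_3D replicates (red) left of Control_3D replicates 1 and 2 (light blue) and 3 and 4 (dark blue). CA9 and NDRG1 are high in both nickel libraries only. ZEB1 and FN1 split the controls into pairs, and ESR1, GATA3 and GREB1 are high in Ni_3D 1 and Control_3D 1.

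Nickel raised 422 and lowered 225 of 14927 genes tested in the all-library fit at a Benjamini-Hochberg adjusted p under 0.05 in edgeR's quasi-likelihood test (2.83% and 1.51%, together 4.33%). Of the rises 338 were over 2-fold, and of the falls 111. Counts of list members called with all libraries are to be read against the shares of 2.83% and 1.51%. Those of the other fits are to be read against the shares of the same fit, given below. The lists were chosen with earlier results of these data known. Nickel and control libraries did not overlap in 421 of the rises and in all 225 falls. Lack of overlap therefore adds little for a called gene, and it was required of genes named as largest changes. The fit without replicates 1 called 59 higher (0.395%) and 15 lower (0.100%), together 0.496%. The fit against controls 3 and 4 called 796 higher (5.33%) and 330 lower (2.21%), together 7.54%, and the fit against Control_3D 1 and 2 called 93 higher (0.623%) and 28 lower (0.188%), together 0.811%. All 422 rises and all 225 falls had the same sign in both other fits. Libraries that do not overlap leave little room for another sign, so the kept sign adds little either. The same direction was called again for 55 rises and 12 falls without replicates 1, and for 267 rises and 160 falls against controls 3 and 4. In all 3 fits 50 genes were called higher (0.335% of those tested) and 11 lower (0.0737%). Upper-quartile scaling called 527 higher and 147 lower, a share of 78.2% higher against 65.2% with TMM. Of the 796 rises against controls 3 and 4, 216 had Control_3D 1 or 2 within or above the nickel range, so they depend on which controls are used. The median log2 fold change of all genes tested was 0.03, 0.00 and 0.05 in the 3 fits. In bulk RNA, fewer cells of a type and less RNA per cell cannot be told apart. The simulation given next left out the split of the controls and changed only genes of at least 5 CPM. In simulated data the all-library fit found 15% of 2-fold and 99% of 4-fold changes, and the fit without replicates 1 found 4% and 60%, so a small change missed there is not shown to be absent.

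Among the genes of oxygen sensing itself, EGLN3, the most inducible of the prolyl hydroxylases, rose, while CUL2 and CITED2 fell. EGLN3 was at 24.2 and 14.3 CPM in Ni_3D 1 and 2, against 2.65, 3.09, 1.03 and 1.52 CPM in Control_3D 1 to 4. Both nickel libraries lay far above every control, with Ni_3D 1 the higher. EGLN3 rose by 3.20 ± 0.69 on the log2 scale (SE, edgeR adjusted p = 0.0291), with values of 2.90 without replicates 1 (adjusted p = 0.147) and 3.96 against controls 3 and 4 (adjusted p = 0.0308). EGLN1, the main hydroxylase of HIF1A, was at 173 and 209 CPM in Ni_3D 1 and 2, against 81.9, 114, 92.2 and 89.4 CPM in Control_3D 1 to 4. The groups did not overlap, but its log2 fold change of 1.02 ± 0.28 missed the threshold (edgeR adjusted p = 0.0585), as did 1.07 without replicates 1 (adjusted p = 0.195) and 1.07 against controls 3 and 4 (adjusted p = 0.0851). EGLN1 was called with DESeq2 (adjusted p = 0.0163) and when only the 6 libraries were fitted (adjusted p = 0.0267). EGLN2 and HIF1AN, the asparagine hydroxylase of HIF, had log2 fold changes of -0.23 and 0.12 (edgeR adjusted p = 0.461 and 0.619). They were -0.16 and 0.13 without replicates 1, and -0.28 and 0.14 against controls 3 and 4, none of them called.

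The messenger RNA of HIF1A followed the split of the controls. It was at 143 and 95 CPM in Ni_3D 1 and 2, against 213, 333, 91.7 and 86.8 CPM in Control_3D 1 to 4, so the nickel values lay between the control pairs. Its log2 fold change was -0.61 ± 0.49 (SE, edgeR adjusted p = 0.470) in the all-library fit, -0.86 without replicates 1 (adjusted p = 0.552) and 0.42 against controls 3 and 4 (adjusted p = 0.410), with the sign reversed in the last. EPAS1, which encodes another HIF alpha subunit, was at 242 and 212 CPM in nickel against 157, 127, 114 and 143 CPM in controls. Both nickel values were above all controls, at a log2 fold change of 0.75 ± 0.31 (SE, edgeR adjusted p = 0.165) that was not called, nor was it at 0.71 without replicates 1 (adjusted p = 0.416) and 0.82 against controls 3 and 4 (adjusted p = 0.210). EPAS1 was called when only the 6 libraries were fitted (adjusted p = 0.0437). CUL2, the scaffold of the VHL ligase, fell to 33.5 and 30.8 CPM in Ni_3D 1 and 2, against 51.9, 71.7, 71.0 and 67.7 CPM in Control_3D 1 to 4. CITED2, which competes with HIF for its coactivator, was at 126 and 96.7 CPM in nickel against 231, 299, 216 and 181 CPM in controls. No control reached the nickel range in either gene. CUL2 and CITED2 had log2 fold changes of -1.03 ± 0.21 and -1.06 ± 0.25 (SE, edgeR adjusted p = 0.0243 and 0.0368). For CUL2 and CITED2 the values were -1.20 and -1.28 without replicates 1 (adjusted p = 0.0872 and 0.120, neither called), and -1.11 and -0.84 against controls 3 and 4 (adjusted p = 0.0189 and 0.0746, CUL2 called). Of 15 sensing genes tested, 1 was called higher and 2 lower with all libraries, 0 and 0 without replicates 1, and 2 and 1 against controls 3 and 4 (median log2 fold changes -0.15, -0.08 and 0.04). EGLN3 and CUL2 were not called without Ni_3D 1 or 2 or Control_3D 2, 3 or 4 (adjusted p up to 0.153). CITED2 was not called without Ni_3D 1 or 2 or Control_3D 1, 2 or 3 (adjusted p up to 0.202).

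Most genes of glucose uptake and glycolysis rose, among them hexokinases, aldolases, PGK1, enolases, lactate dehydrogenase A and the pyruvate dehydrogenase kinases. Of 25 genes of glucose uptake and glycolysis tested, 19 were called higher and 0 lower with all libraries, 7 and 0 without replicates 1, and 17 and 0 against controls 3 and 4 (median log2 fold changes 1.2, 1.16 and 1.2). Both nickel libraries lay above all 4 controls for 22 of the 25, against 20.3% of all genes tested. With all libraries 2.83% of all genes tested were called higher. Genes of this list with near-identical processed pseudogenes, among them GAPDH, PGK1, ALDOA, TPI1, ENO1 and LDHA, may share reads with them, since the counting is not given in the sources used here.

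The 250 bases before the transcription start of 4 such targets are shown because they carry, or lack, the core letters that HIF is known to bind. CA9 and P4HA2 are described further on, FAM162A encodes a mitochondrial protein induced by low oxygen, and PGK1 is phosphoglycerate kinase. Sequences are from RefSeq (GRCh38.p14), 5′ to 3′ on the gene's strand, with ACGTG and GCGTG on either strand (so also CACGT and CACGC) in capitals. The windows are chr9:35673678-35673927 on the plus strand for CA9, chr3:122383932-122384181 on the plus strand for FAM162A, chrX:78103998-78104247 on the plus strand for PGK1 and chr5:132227092-132227341 on the minus strand for P4HA2.
CA9: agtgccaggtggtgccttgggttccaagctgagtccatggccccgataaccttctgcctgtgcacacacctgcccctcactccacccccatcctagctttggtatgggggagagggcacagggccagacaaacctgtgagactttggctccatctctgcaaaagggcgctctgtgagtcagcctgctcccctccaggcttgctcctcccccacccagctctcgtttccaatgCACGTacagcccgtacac
FAM162A: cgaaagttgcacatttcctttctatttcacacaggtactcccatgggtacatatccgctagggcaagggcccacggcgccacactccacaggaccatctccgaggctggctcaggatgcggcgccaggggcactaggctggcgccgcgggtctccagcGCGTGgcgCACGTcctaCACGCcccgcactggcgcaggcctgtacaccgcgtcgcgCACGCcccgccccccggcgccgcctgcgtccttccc
PGK1: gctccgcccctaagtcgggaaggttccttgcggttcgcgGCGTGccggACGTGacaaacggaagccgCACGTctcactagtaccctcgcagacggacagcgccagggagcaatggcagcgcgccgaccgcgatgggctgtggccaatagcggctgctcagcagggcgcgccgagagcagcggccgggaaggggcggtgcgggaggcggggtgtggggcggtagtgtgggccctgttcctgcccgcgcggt
P4HA2: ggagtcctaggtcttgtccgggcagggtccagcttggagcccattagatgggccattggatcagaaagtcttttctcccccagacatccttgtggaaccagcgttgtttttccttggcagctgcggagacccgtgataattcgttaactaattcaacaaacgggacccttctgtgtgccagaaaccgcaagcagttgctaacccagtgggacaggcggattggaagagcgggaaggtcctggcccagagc
CA9 holds 1 such match, 18 bases before the start. FAM162A holds 4, of which the nearest is 36 bases before the start, and PGK1 holds 3, all between 183 and 211 bases before it. P4HA2 holds none in this window. Only 1 start per gene was searched, and P4HA2 has several RefSeq transcripts, so its other starts were not examined. A match was found in 25 of the 43 promoters matched among genes higher in all 3 fits (58.1%), in 13 of 23 of the glycolysis list (56.5%), in 56.8% of the 11646 promoters matched among all genes tested, and in 43.2% of all 35116 promoters in the table. The shares of the first 2 sets were thus close to that of all genes tested. The median GC content was 69.6% in the first set, 69.6% in the glycolysis list, 64.8% in all genes tested and 58% in all promoters. A match is only a match of letters, and the deposited counts use another build, hg19.

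Along the pathway, the glucose transporter SLC2A1 came first. SLC2A1 was at 624 and 673 CPM in Ni_3D 1 and 2, against 176, 201, 224 and 262 CPM in Control_3D 1 to 4. The groups did not overlap, yet its log2 fold change of 1.59 ± 0.42 missed the threshold (edgeR adjusted p = 0.0516), as it did at 1.54 without replicates 1 (adjusted p = 0.203) and 1.42 against controls 3 and 4 (adjusted p = 0.123). SLC2A1 was called with DESeq2 (adjusted p = 0.00506), when only the 6 libraries were fitted (adjusted p = 0.00541) and with upper-quartile scaling (adjusted p = 0.0489). SLC2A3, a transporter of higher affinity, was at 4.43 and 2.5 CPM in nickel against 1.34, 0.735, 0.650 and 0.469 CPM in controls (log2 fold change 2.05, edgeR adjusted p = 0.0409). The hexokinases HK1 and HK2 rose by 0.78 and 1.71 on the log2 scale, and glucose-6-phosphate isomerase GPI by 1.14. PFKFB3, which makes the activator of phosphofructokinase, was at 465 and 521 CPM in Ni_3D 1 and 2, against 73.2, 84.4, 64.4 and 58.8 CPM in Control_3D 1 to 4. Every control was below both nickel libraries by a wide margin. PFKFB3 had a log2 fold change of 2.81 ± 0.26 (SE, edgeR adjusted p = 0.000224), which was 2.89 without replicates 1 (adjusted p = 0.0151) and 3.0 against controls 3 and 4 (adjusted p = 0.00157). Its relative PFKFB4 was at 158 and 143 CPM in nickel against 17.6, 20.6, 15.5 and 19.5 CPM in controls, with log2 fold changes of 3.04, 2.93 and 3.11 in the 3 fits, all called. The phosphofructokinases PFKL and PFKP rose by 0.82 and 0.92, whereas PFKM was lower in both nickel libraries, at 87.0 and 77.2 CPM in nickel against 110.3, 101, 111 and 105 CPM in controls, and was not called (edgeR adjusted p = 0.199).

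Aldolase A (ALDOA) was at 4432 and 5761 CPM in Ni_3D 1 and 2, against 1600.0, 1478, 1583 and 1777 CPM in Control_3D 1 to 4. The 4 controls lay close together and both nickel values stood above them. ALDOA rose by 1.66 ± 0.15 on the log2 scale (SE, edgeR adjusted p = 0.000224), with values of 1.82 without replicates 1 (adjusted p = 0.00776) and 1.60 against controls 3 and 4 (adjusted p = 0.00277). Its brain-type relative ALDOC was at 87.2 and 50.8 CPM in nickel against 7.84, 6.56, 6.96 and 12 CPM in controls (log2 fold change 3.07). PGK1 was at 2591 and 2499.7 CPM in Ni_3D 1 and 2, against 524, 495, 518 and 584 CPM in Control_3D 1 to 4. Here the nickel libraries were nearly equal and no control came near them. PGK1 had a log2 fold change of 2.26 ± 0.20 (SE, edgeR adjusted p = 0.000224), which was 2.21 without replicates 1 (adjusted p = 0.0155) and 2.21 against controls 3 and 4 (adjusted p = 0.00242). Triosephosphate isomerase TPI1 and glyceraldehyde-3-phosphate dehydrogenase GAPDH rose by 1.05 and 1.12 on the log2 scale, and were called in all 3 fits. Enolases ENO1 and ENO2 rose by 1.2 and 2.15, of which ENO2 was called in all 3 fits. At the end of the pathway, lactate dehydrogenase A (LDHA) was at 1589.7 and 1939 CPM in nickel against 486, 547, 504 and 642 CPM in controls, and LDHB at 179.6 and 332 CPM in nickel against 301, 303, 390.1 and 351 CPM in controls. LDHA rose (log2 fold change 1.69, edgeR adjusted p = 0.0148) and LDHB was not called (-0.39, adjusted p = 0.369). The lactate exporter SLC16A3 rose by 1.10. PKM (0.76), PGAM1 (0.36) and SLC16A1 (-0.35) were not called. PDK1, a kinase that shuts pyruvate out of mitochondria, was at 67.3 and 52.3 CPM in Ni_3D 1 and 2, against 9.20, 18.0, 8.42 and 15.4 CPM in Control_3D 1 to 4. Ni_3D 1 was the highest and all controls were lower. PDK1 rose by 2.24 ± 0.43 on the log2 scale (SE, edgeR adjusted p = 0.0202), with values of 1.90 without replicates 1 (adjusted p = 0.141) and 2.35 against controls 3 and 4 (adjusted p = 0.0289). PDK3 rose by 1.2. Across the 14 called genes given with 1 value here (SLC2A3, HK1, HK2, GPI, PFKL, PFKP, ALDOC, TPI1, GAPDH, ENO1, ENO2, LDHA, SLC16A3 and PDK3) the log2 fold changes lay between 0.60 and 2.58 without replicates 1 (adjusted p 0.0161 to 0.159), and between 0.68 and 2.89 against controls 3 and 4 (adjusted p 0.00160 to 0.0716, with SLC2A3, HK1, GPI, PFKL, PFKP, ALDOC, TPI1, GAPDH, ENO1, ENO2, LDHA and PDK3 called). For the 5 not called they lay between -0.47 and 1.01 without replicates 1 and between -0.57 and 0.94 against controls 3 and 4, with none called in the last fit. Called in all 3 fits were PFKFB3, PFKFB4, ALDOA, TPI1, GAPDH, PGK1 and ENO2. PDK1 was not called without Ni_3D 1 or 2 or Control_3D 3 (adjusted p up to 0.0954).

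**Figure D2:**
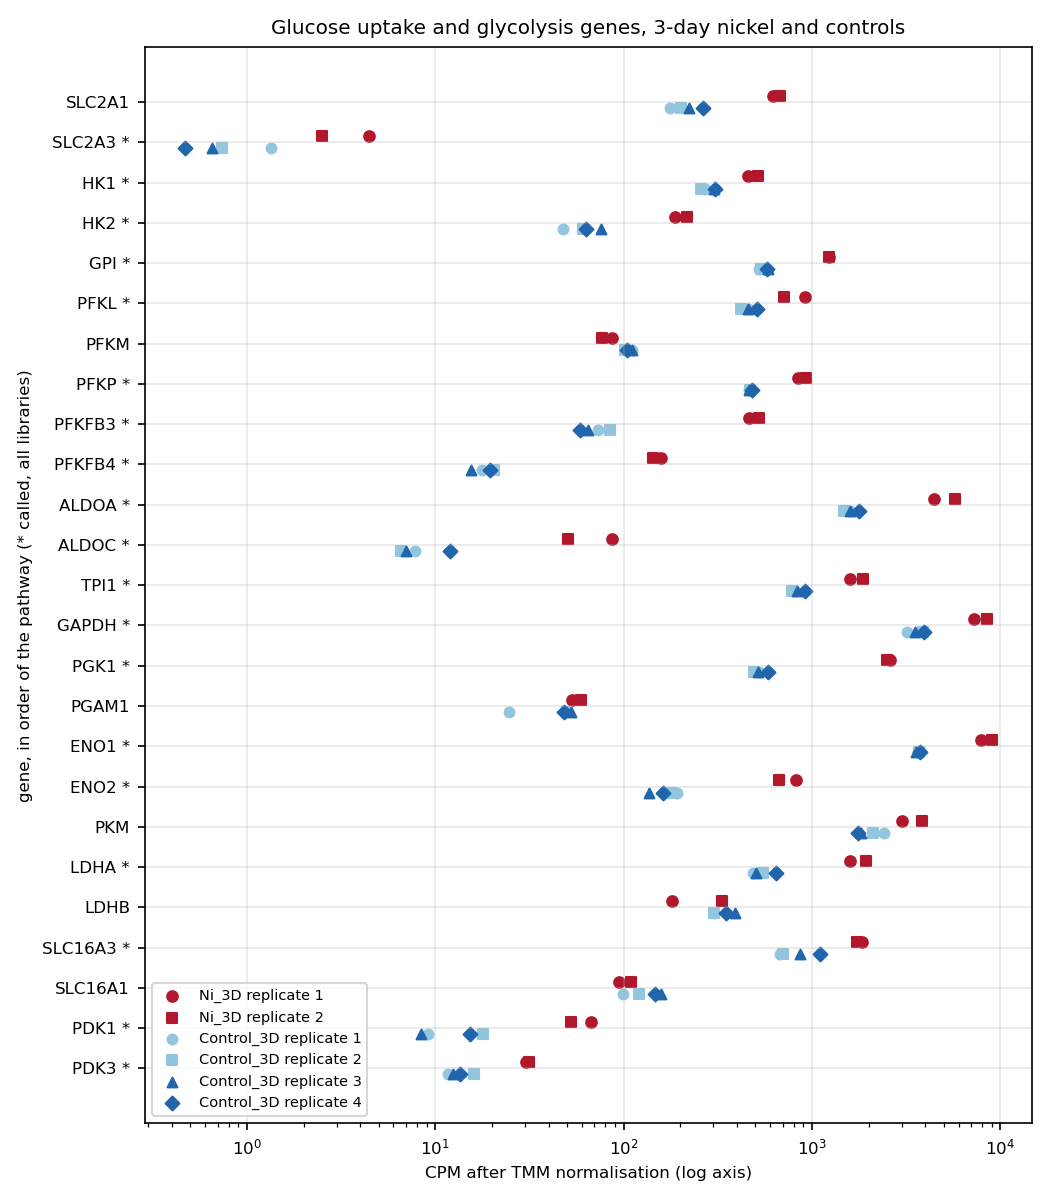
Level of each of 25 genes of glucose uptake and glycolysis by library (CPM after TMM normalisation, log axis), in order of the pathway, with Ni_3D (red) drawn just above Control_3D (blue) on each line. Asterisks mark genes called in the all-library fit. Both nickel libraries are right of every control for 22 genes, while PFKM is left of them.

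Large rises were seen among HIF targets outside glycolysis. CA9 encodes a membrane carbonic anhydrase and is a textbook HIF target. It was at 628 and 368 CPM in Ni_3D 1 and 2, against 4.59, 8.96, 0.689 and 13.2 CPM in Control_3D 1 to 4. Nickel and control values lay far apart, and the controls themselves varied widely. CA9 had a log2 fold change of 6.26 ± 1.0 (SE, edgeR adjusted p = 0.0126), which was 5.64 without replicates 1 (adjusted p = 0.0891) and 6.32 against controls 3 and 4 (adjusted p = 0.0312). NDRG1, a stress-induced gene of growth arrest, was at 2617 and 1705 CPM in Ni_3D 1 and 2, against 41.0, 81.5, 60.6 and 125 CPM in Control_3D 1 to 4. Ni_3D 1 was again the higher of the nickel pair. NDRG1 rose by 4.82 ± 0.69 on the log2 scale (SE, edgeR adjusted p = 0.00693), with values of 4.25 without replicates 1 (adjusted p = 0.0667) and 4.54 against controls 3 and 4 (adjusted p = 0.0185). DDIT4, an inhibitor of mTORC1 signalling, was at 656 and 634 CPM in Ni_3D 1 and 2, against 23.6, 16.2, 25.0 and 72.7 CPM in Control_3D 1 to 4. Control_3D 4 stood above the other controls but far below nickel. DDIT4 had a log2 fold change of 4.25 ± 0.74 (SE, edgeR adjusted p = 0.0164), which was 4.06 without replicates 1 (adjusted p = 0.0956) and 3.74 against controls 3 and 4 (adjusted p = 0.0344). KDM3A, a histone H3 lysine demethylase of the same dioxygenase class as the EGLN enzymes, was at 151 and 138 CPM in Ni_3D 1 and 2, against 49.0, 50.7, 35.8 and 43.9 CPM in Control_3D 1 to 4. The groups were well apart. KDM3A rose by 1.69 ± 0.23 on the log2 scale (SE, edgeR adjusted p = 0.00292), with values of 1.65 without replicates 1 (adjusted p = 0.0546) and 1.86 against controls 3 and 4 (adjusted p = 0.00566).

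Of 27 other hypoxia-induced genes tested, 16 were called higher and 0 lower with all libraries, 5 and 0 without replicates 1, and 14 and 0 against controls 3 and 4 (median log2 fold changes 1.61, 1.29 and 1.46). Of all genes tested 2.83% were called higher with all libraries. The list was gathered from genes known to respond to low oxygen, but with earlier results of these data known. Its count is therefore a description and no independent test. The list holds PPFIA4, SPAG4, TMEM45A and BHLHE41, described next. Its member RORA, a nuclear receptor, was at 10.6 and 5.37 CPM in Ni_3D 1 and 2, against 0.423, 0.441, 0 and 0 CPM in Control_3D 1 to 4. Both nickel libraries were above the controls, of which Control_3D 3 and 4 had no read. Its log2 fold change was 4.99 ± 1.0 (SE, edgeR adjusted p = 0.0235), and 4.99 without replicates 1 (edgeR adjusted p = 0.111). Against controls 3 and 4 it was at least 84.4-fold higher in nickel, with a floor of 3 reads over the group (edgeR adjusted p = 0.00977). Not called were IGFBP3, which was at 489 and 239 CPM in nickel against 1530.5, 1997, 219 and 403 CPM in controls, and 10 others. In 21 of the 27 genes Ni_3D 1 was above Ni_3D 2. Among 6 genes of pH regulation tested, CA9 alone was called in the all-library fit, and 0 without replicates 1. Against controls 3 and 4, 2 were called higher and 1 lower. The list's median log2 fold changes were 0.40, 0.67 and 1.26 in the 3 fits. DDIT4 was not called without Ni_3D 2 or Control_3D 2 or 3 (adjusted p up to 0.0767). RORA was not called without Ni_3D 1 or 2 or Control_3D 2 (adjusted p up to 0.0944). DDIT4 was at 4.88 without Control_3D 4 on the log2 scale.

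Further large rises, called in the all-library fit and against controls 3 and 4, were FGF11 (4.21, adjusted p = 0.00408), RIMKLA (4.18, adjusted p = 0.0362), NIM1K (3.70, adjusted p = 0.00947), FAM115C (3.48, adjusted p = 0.00928) and APLN (3.23, adjusted p = 0.0452), given as log2 fold change with edgeR's adjusted p. FGF11 belongs to the intracellular FGF homologous factors, APLN encodes the peptide hormone apelin, RIMKLA makes the neurotransmitter NAAG and NIM1K is a protein kinase. APLN was at 61.6 and 30.4 CPM in nickel against 5.13, 8.82, 1.68 and 3.98 CPM in controls, and FGF11 at 144 and 70.3 CPM in nickel against 5.71, 8.33, 3.14 and 6.09 CPM in controls. No control reached either nickel library in these 5 genes, as the rule for naming them required. Without replicates 1 the 5 lay between 2.64 and 4.28 (adjusted p 0.0667 to 0.227, none called), and against controls 3 and 4 between 3.91 and 6.31 (adjusted p 0.0122 to 0.0442, all 5 called). RIMKLA and APLN were not called when any 1 library was left out (adjusted p up to 0.182). NIM1K and FAM115C were not called without Ni_3D 1 (adjusted p up to 0.0597). FGF11 was at 3.60 without Ni_3D 1 on the log2 scale. APLN was at 2.63 without Ni_3D 1 on the log2 scale.

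The 50 rises called in all 3 fits include the 10 largest below. They were chosen among those with at least 5 CPM and no overlap between nickel and control libraries. SPRY1, an inhibitor of receptor tyrosine kinase signalling to ERK, was at 7.01 and 5.03 CPM in Ni_3D 1 and 2, against 0.267, 0.147, 0.0383 and 0 CPM in Control_3D 1 to 4. It was close to absent in controls and present in both nickel libraries. Its log2 fold change was 5.39 ± 0.70 (SE, edgeR adjusted p = 0.00189), and 6.03 without replicates 1 (edgeR adjusted p = 0.0284). Control_3D 3 and 4 held 1 read, which gives a ratio of 199.9 with a 95% counting interval of 35.8 to 7907. PPFIA4, a liprin scaffold protein, was at 224 and 106 CPM in Ni_3D 1 and 2, against 6.24, 8.03, 2.64 and 5.74 CPM in Control_3D 1 to 4. Ni_3D 1 was the higher, and every control was far below. PPFIA4 had a log2 fold change of 4.87 ± 0.47 (SE, edgeR adjusted p = 0.000245), which was 4.27 without replicates 1 (adjusted p = 0.0161) and 5.37 against controls 3 and 4 (adjusted p = 0.00162). BHLHE41, a transcriptional repressor of the circadian clock, was at 12.5 and 9.62 CPM in Ni_3D 1 and 2, against 0.646, 0.588, 0.383 and 0.117 CPM in Control_3D 1 to 4. All controls were under 1 CPM. BHLHE41 rose by 4.54 ± 0.57 on the log2 scale (SE, edgeR adjusted p = 0.00143), with values of 4.58 without replicates 1 (adjusted p = 0.0331) and 5.22 against controls 3 and 4 (adjusted p = 0.00426). TMEM145, a transmembrane protein, was at 27.8 and 30.7 CPM in Ni_3D 1 and 2, against 2.54, 2.89, 1.68 and 1.64 CPM in Control_3D 1 to 4. The nickel pair were close together and clear of the controls. TMEM145 had a log2 fold change of 3.72 ± 0.39 (SE, edgeR adjusted p = 0.000408), which was 3.86 without replicates 1 (adjusted p = 0.0206) and 4.13 against controls 3 and 4 (adjusted p = 0.00232).

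FER1L4, a non-coding pseudogene of the ferlin family, was at 249 and 112 CPM in Ni_3D 1 and 2, against 10.6, 11.5, 7.96 and 17.5 CPM in Control_3D 1 to 4, and SPAG4, a SUN-domain protein of the nuclear envelope, at 81.0 and 43.2 CPM in Ni_3D 1 and 2, against 4.43, 5.29, 4.70 and 9.26 CPM in Control_3D 1 to 4. In both, Ni_3D 1 was above Ni_3D 2 and no control came near. They are neighbours on chromosome 20 (hg19), FER1L4 at 34146508 to 34195484 on the minus strand and SPAG4 at 34203810 to 34208965 on the plus strand. FER1L4 and SPAG4 had log2 fold changes of 3.95 ± 0.46 and 3.42 ± 0.39 (SE, edgeR adjusted p = 0.00101 and 0.000751). PIK3IP1, an inhibitor of PI3 kinase, was at 25.5 and 10.4 CPM in nickel against 1.38, 1.13, 0.995 and 1.29 CPM in controls. TMEM45A, a transmembrane protein induced by hypoxia, was at 45.0 and 29.6 CPM in nickel against 2.70, 2.60, 3.63 and 2.70 CPM in controls. Neither gene had a control within the nickel range, as the choice of these rises required. ARHGEF37, named for its RhoGEF domain, was at 22.1 and 12.9 CPM in nickel against 2.18, 1.96, 1.26 and 1.99 CPM in controls, and ALS2CL, a relative of alsin, at 18.3 and 33.3 CPM in nickel against 3.37, 2.55, 2.07 and 3.63 CPM in controls. ALS2CL was higher in Ni_3D 2, unlike 8 of these 10 rises. PIK3IP1, TMEM45A, ARHGEF37 and ALS2CL had log2 fold changes of 3.90 ± 0.45, 3.67 ± 0.41, 3.24 ± 0.35 and 3.16 ± 0.45 (SE, edgeR adjusted p = 0.000834, 0.000707, 0.000617 and 0.00381). Without replicates 1 the 6 lay between 2.76 and 3.61 (adjusted p 0.0304 to 0.0359, all 6 called), and against controls 3 and 4 between 3.19 and 4.01 (adjusted p 0.00344 to 0.0146, all 6 called). Ni_3D 1 was above Ni_3D 2 in 19 of the 50 rises. This count is no trait of the genes alone, because the fit without replicates 1 has Ni_3D 2 as its only nickel library. A call in all 3 fits thus favours rises that are high in Ni_3D 2. ALS2CL was not called without Ni_3D 2 (adjusted p up to 0.0593). SPRY1 was at 6.31 without Control_3D 1 on the log2 scale. PPFIA4 was at 4.22 without Ni_3D 1 on the log2 scale. FER1L4 was at 3.26 without Ni_3D 1 on the log2 scale. PIK3IP1 was at 3.12 without Ni_3D 1 on the log2 scale.

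**Figure D3:**
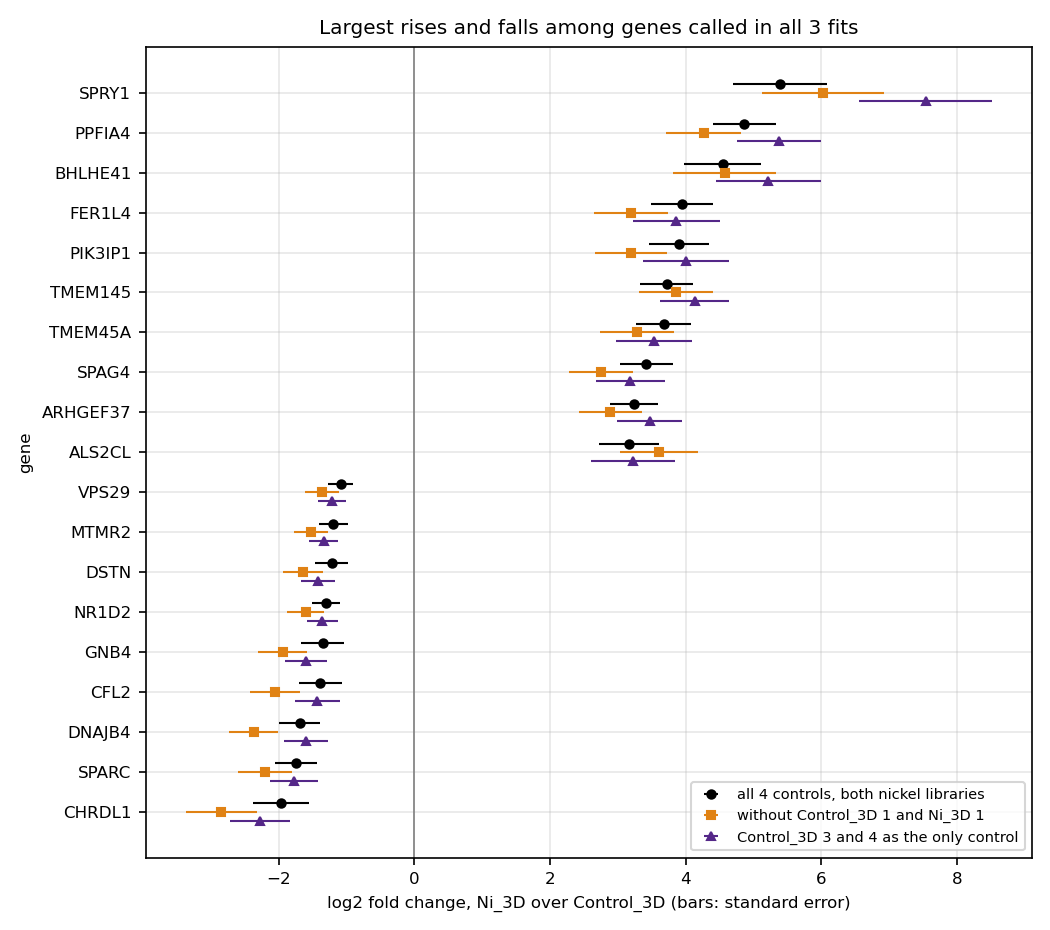
log2 fold change of Ni_3D over Control_3D with its standard error for the 10 largest rises and 9 largest falls among genes called in all 3 fits, in the all-library fit (circles), without replicates 1 (squares) and against controls 3 and 4 (triangles). Every gene keeps its side of 0 in the 3 fits, as the choice of these genes required. The triangle of SPRY1 rests on 1 control read.

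Secreted vascular factors, mitochondrial adaptation, collagen modification and glycogen synthesis each held called rises and no called fall in the all-library fit. There 2.83% of all genes tested were called higher. VEGFA, the main growth factor of blood vessels, was at 341 and 439.9 CPM in Ni_3D 1 and 2, against 43.3, 41.6, 47.4 and 71.2 CPM in Control_3D 1 to 4. Both nickel libraries were far above the controls. VEGFA rose by 2.94 ± 0.44 on the log2 scale (SE, edgeR adjusted p = 0.00606), with values of 3.03 without replicates 1 (adjusted p = 0.0546) and 2.72 against controls 3 and 4 (adjusted p = 0.0218). STC2, a secreted glycoprotein, averaged 758 CPM in Ni_3D and 179 CPM in Control_3D, and VEGFB averaged 60.8 CPM in Ni_3D and 31.6 CPM in Control_3D. Their log2 fold changes were 2.08 ± 0.41 and 0.95 ± 0.24 (SE, edgeR adjusted p = 0.0222 and 0.0432), and neither was called in the other 2 fits. For STC2 and VEGFB the values were 2.09 and 0.71 without replicates 1 (adjusted p = 0.109 and 0.277, neither called), and 1.81 and 0.83 against controls 3 and 4 (adjusted p = 0.0536 and 0.106, neither called). Of 14 vascular factors tested, 3 were called higher and 0 lower with all libraries, 0 and 0 without replicates 1, and 1 and 0 against controls 3 and 4 (median log2 fold changes 0.93, 0.96 and 0.69). VEGFA was not called without Ni_3D 2 (adjusted p up to 0.0584). STC2 was not called without Ni_3D 1 or 2 or Control_3D 2 (adjusted p up to 0.136). VEGFB was not called when any 1 library was left out (adjusted p up to 0.220).

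BNIP3, a receptor that directs mitochondria to autophagy, was at 360.2 and 395 CPM in Ni_3D 1 and 2, against 40.0, 72.2, 58.0 and 73.4 CPM in Control_3D 1 to 4. The groups were well apart. BNIP3 had a log2 fold change of 2.64 ± 0.41 (SE, edgeR adjusted p = 0.00712), which was 2.53 without replicates 1 (adjusted p = 0.0646) and 2.53 against controls 3 and 4 (adjusted p = 0.0178). FAM162A was at 167 and 141 CPM in Ni_3D 1 and 2, against 25.7, 23.8, 22.2 and 26.8 CPM in Control_3D 1 to 4. The controls were tightly grouped and nickel lay above all of them. FAM162A rose by 2.65 ± 0.20 on the log2 scale (SE, edgeR adjusted p = 7.86e-05), with values of 2.52 without replicates 1 (adjusted p = 0.00776) and 2.65 against controls 3 and 4 (adjusted p = 0.00101). MXI1, an antagonist of MYC, rose by 1.98 ± 0.36 on the log2 scale (edgeR adjusted p = 0.0146), with values of 1.27 without replicates 1 (adjusted p = 0.161) and 1.63 against controls 3 and 4 (adjusted p = 0.0378). Of 11 genes of mitochondrial adaptation tested, 4 were called higher and 0 lower with all libraries, 1 and 0 without replicates 1, and 3 and 0 against controls 3 and 4 (median log2 fold changes 0.73, 0.64 and 0.45). The glycogen genes phosphoglucomutase PGM1 and branching enzyme GBE1 averaged 179.6 CPM in Ni_3D and 80.4 CPM in Control_3D, and 133 CPM in Ni_3D and 57.1 CPM in Control_3D. PGM1 and GBE1 had log2 fold changes of 1.16 ± 0.15 and 1.22 ± 0.22 (SE, edgeR adjusted p = 0.00224 and 0.0145). For PGM1 and GBE1 the values were 1.05 and 1.06 without replicates 1 (adjusted p = 0.0548 and 0.127, neither called), and 1.07 and 1.33 against controls 3 and 4 (adjusted p = 0.0108 and 0.0169, both called). Of 11 glycogen genes tested, 2 were called higher and 0 lower with all libraries, 0 and 0 without replicates 1, and 2 and 0 against controls 3 and 4 (median log2 fold changes 0.89, 0.49 and 0.72). BNIP3 was not called without Ni_3D 2 (adjusted p up to 0.0598). MXI1 was not called without Ni_3D 1 or Control_3D 2 (adjusted p up to 0.125). GBE1 was not called without Ni_3D 1 or 2 or Control_3D 3 (adjusted p up to 0.0901).

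Collagen prolyl 4-hydroxylases use the same cofactors as the EGLN enzymes. P4HA1 and P4HA2 encode their catalytic subunits. P4HA2 was at 478 and 477 CPM in Ni_3D 1 and 2, against 173, 136, 159.7 and 137 CPM in Control_3D 1 to 4. The nickel values were nearly equal and every control was lower. P4HA2 had a log2 fold change of 1.66 ± 0.15 (SE, edgeR adjusted p = 0.000224), which was 1.71 without replicates 1 (adjusted p = 0.0105) and 1.69 against controls 3 and 4 (adjusted p = 0.00157). P4HA1 was at 397 and 245 CPM in Ni_3D 1 and 2, against 58.4, 64.3, 102 and 90.6 CPM in Control_3D 1 to 4. Ni_3D 1 was the higher, and no control reached Ni_3D 2. P4HA1 rose by 2.03 ± 0.28 on the log2 scale (SE, edgeR adjusted p = 0.00294), with values of 1.5 without replicates 1 (adjusted p = 0.0697) and 1.74 against controls 3 and 4 (adjusted p = 0.0114). LOX, the lysyl oxidase that cross-links collagen, was at 323 and 119 CPM in Ni_3D 1 and 2, against 66.8, 67.1, 59.4 and 47.1 CPM in Control_3D 1 to 4. Ni_3D 1 stood well above Ni_3D 2, and both were above the controls. LOX had a log2 fold change of 1.88 ± 0.34 (SE, edgeR adjusted p = 0.0146), which was 1.02 without replicates 1 (adjusted p = 0.170) and 2.05 against controls 3 and 4 (adjusted p = 0.0228). Of 14 genes of collagen modification tested, 4 were called higher and 0 lower with all libraries, 1 and 0 without replicates 1, and 5 and 0 against controls 3 and 4 (median log2 fold changes 0.57, 0.55 and 0.43). LOX was not called without Ni_3D 1 (adjusted p up to 0.155). LOX was at 0.99 without Ni_3D 1 on the log2 scale.

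Metal response genes gave 1 called metallothionein. MT2A, the most widely expressed metallothionein, was at 645 and 1199 CPM in Ni_3D 1 and 2, against 140.4, 153, 276 and 373 CPM in Control_3D 1 to 4. Control_3D 3 and 4 lay above Control_3D 1 and 2, and nickel above all 4. MT2A rose by 1.97 ± 0.47 on the log2 scale (SE, edgeR adjusted p = 0.0409), with values of 2.15 without replicates 1 (adjusted p = 0.106) and 1.51 against controls 3 and 4 (adjusted p = 0.0878). MT1X was at 15.2 and 19.7 CPM in Ni_3D 1 and 2, against 3.5, 3.53, 7.08 and 7.38 CPM in Control_3D 1 to 4. It showed the same split of the controls. Its log2 fold change of 1.72 ± 0.70 was not called (edgeR adjusted p = 0.155), nor were 1.71 without replicates 1 (adjusted p = 0.370) and 1.27 against controls 3 and 4 (adjusted p = 0.370). MT1X was called when only the 6 libraries were fitted (adjusted p = 0.0402). Metallothionein genes are near-identical copies, so their counts are uncertain. The zinc exporter SLC30A1 was at 20.9 and 32.0 CPM in nickel against 14.7, 17.9, 27.7 and 22.9 CPM in controls, with nickel inside the control range in Ni_3D 1, and its log2 fold change of 0.35 was not called (edgeR adjusted p = 0.738). It was 0.47 without replicates 1, 0.06 against controls 3 and 4 and -0.010 without Ni_3D 2. Of 9 metallothionein and zinc genes tested, 1 was called higher and 0 lower with all libraries, 0 and 0 without replicates 1, and 1 and 0 against controls 3 and 4 (median log2 fold changes 1.26, 0.65 and 0.74). MT2A was not called without Ni_3D 1 or 2 or Control_3D 1, 2 or 3 (adjusted p up to 0.233).

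The transferrin receptor TFRC, which brings in iron, was at 699 and 806 CPM in Ni_3D 1 and 2, against 292, 238, 391 and 295 CPM in Control_3D 1 to 4. All controls were below nickel. TFRC had a log2 fold change of 1.31 ± 0.28 (SE, edgeR adjusted p = 0.0272), which was 1.37 without replicates 1 (adjusted p = 0.122) and 1.13 against controls 3 and 4 (adjusted p = 0.0661). TFR2, the second transferrin receptor, was at 1.14 and 0.606 CPM in Ni_3D 1 and 2, against 0.0223, 0.0490, 0 and 0 CPM in Control_3D 1 to 4. It had 108 reads in nickel and 2 in the controls, all in Control_3D 1 and 2, a ratio of 40.3 with a 95% counting interval of 10.9 to 337 (edgeR adjusted p = 0.0214). Without replicates 1 its adjusted p was 0.131, and against controls 3 and 4 it was at least 9.31-fold higher (adjusted p = 0.0430). Of 14 iron genes tested, 2 were called higher and 0 lower with all libraries, 0 and 0 without replicates 1, and 1 and 1 against controls 3 and 4 (median log2 fold changes 0.10, -0.08 and 0.15). The antioxidant gene HMOX1, heme oxygenase, was at 51 and 95.4 CPM in nickel against 39.4, 34.5, 42.5 and 50.4 CPM in controls, and NQO1 at 157 and 195 CPM in nickel against 164, 159, 78.5 and 76.5 CPM in controls. HMOX1 was above the controls in both nickel libraries, and NQO1 overlapped them. Neither was called in the all-library fit (0.81 and 0.56, edgeR adjusted p = 0.298 and 0.278). Without replicates 1 they were 1.15 and 0.88, and against controls 3 and 4 0.66 and 1.18, of which NQO1 was called (adjusted p = 0.0155). ABCC3, a drug exporter, was the only one of 21 NRF2 targets called in the all-library fit, where 2.83% of all genes tested were called higher. It was at 77.0 and 30.9 CPM in nickel against 6.42, 5.09, 1.22 and 6.91 CPM in controls. ABCC3 rose by 3.48 ± 0.78 on the log2 scale (SE, edgeR adjusted p = 0.0348), with values of 2.84 without replicates 1 (adjusted p = 0.179) and 3.85 against controls 3 and 4 (adjusted p = 0.0617). TFRC was not called without Ni_3D 1 or 2 or Control_3D 2 or 4 (adjusted p up to 0.157). TFR2 was not called without Ni_3D 1 or 2 or Control_3D 2 or 3 (adjusted p up to 0.0901). ABCC3 was not called without Ni_3D 1 or 2 or Control_3D 2, 3 or 4 (adjusted p up to 0.159). ABCC3 was at 2.67 without Ni_3D 1 on the log2 scale.

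DDIT3, DDB2, BTG2 and CDKN1A were higher in Ni_3D 2 than in Ni_3D 1, the reverse of most of the hypoxia list. DDIT3, the transcription factor CHOP of the unfolded protein response, was at 40.6 and 69.3 CPM in Ni_3D 1 and 2, against 25.5, 15.8, 23.4 and 19.6 CPM in Control_3D 1 to 4. DDB2, a p53 target that recognises ultraviolet damage in DNA, was at 43.4 and 81.1 CPM in Ni_3D 1 and 2, against 19.7, 17.1, 24.6 and 23.8 CPM in Control_3D 1 to 4. BTG2, an antiproliferative p53 target, was at 23.8 and 62.0 CPM in Ni_3D 1 and 2, against 13.3, 9.21, 17.4 and 12.9 CPM in Control_3D 1 to 4. In all 3 genes Ni_3D 2 was the highest library and no control reached Ni_3D 1. DDIT3, DDB2 and BTG2 had log2 fold changes of 1.38 ± 0.27, 1.55 ± 0.26 and 1.70 ± 0.34 (SE, edgeR adjusted p = 0.0186, 0.010 and 0.0235). For DDIT3, DDB2 and BTG2 the values were 1.80, 1.87 and 2.22 without replicates 1 (adjusted p = 0.0359, 0.0304 and 0.0331, all 3 called), and 1.35, 1.36 and 1.5 against controls 3 and 4 (adjusted p = 0.0303, 0.0290 and 0.0528, DDIT3 and DDB2 called). CDKN1A, the p53-induced inhibitor of the cell cycle, was at 173 and 763 CPM in Ni_3D 1 and 2, against 124, 107, 305 and 169.7 CPM in Control_3D 1 to 4. Ni_3D 2 stood above all others while Ni_3D 1 fell among the controls. CDKN1A had a log2 fold change of 1.41 ± 0.48 (SE, edgeR adjusted p = 0.101), which was 1.96 without replicates 1 (adjusted p = 0.0667) and 0.98 against controls 3 and 4 (adjusted p = 0.254). CDKN1A was called with DESeq2 (adjusted p = 0.0299). The lipoprotein receptor VLDLR averaged 49.9 CPM in Ni_3D and 24.3 CPM in Control_3D (log2 fold change 1.04, edgeR adjusted p = 0.0410). It was 0.77 and 0.87 in the other fits, not called. Of 28 ATF4 and unfolded protein response genes tested, 4 were called higher and 0 lower with all libraries, 3 and 0 without replicates 1, and 1 and 0 against controls 3 and 4 (median log2 fold changes 0.69, 0.82 and 0.58). Of 26 p53 targets tested, 2 were called higher and 0 lower with all libraries, 4 and 0 without replicates 1, and 1 and 0 against controls 3 and 4 (median log2 fold changes 0.73, 0.84 and 0.37). DDIT3 was not called without Ni_3D 2 or Control_3D 2 (adjusted p up to 0.182). DDB2 was not called without Ni_3D 2 (adjusted p up to 0.145). BTG2 was not called without Ni_3D 2 or Control_3D 2 or 4 (adjusted p up to 0.255). VLDLR was not called without Ni_3D 1 or 2 or Control_3D 1, 2 or 3 (adjusted p up to 0.220). BTG2 was at 0.83 without Ni_3D 2 on the log2 scale. CDKN1A was at 2.11 without Ni_3D 1 and -0.05 without Ni_3D 2 on the log2 scale.

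Of the NF-kB targets and cytokines, NFKB2 was the only one of 26 called in the all-library fit, at 206 and 333 CPM in nickel against 92.6, 81.6, 142 and 126 CPM in controls, with a log2 fold change of 1.29 ± 0.28 (SE, edgeR adjusted p = 0.0291). It was 1.5 without replicates 1 (adjusted p = 0.0805) and 1.01 against controls 3 and 4 (adjusted p = 0.0718). The list's median log2 fold changes were 0.05, -0.19 and -0.29 in the 3 fits. Of 26 immediate early and ERK feedback genes, SPRY1 was the only call in the all-library fit and without replicates 1, and 2 were called against controls 3 and 4. The list's median log2 fold changes were 0.41, 0.65 and 0.27 in the 3 fits. For both of these lists of 26, the share called higher over all genes tested was 2.83% with all libraries. TXNIP, a glucose-induced brake on glucose uptake, was at 791 and 337 CPM in Ni_3D 1 and 2, against 171, 167, 60.5 and 93.6 CPM in Control_3D 1 to 4. Both nickel libraries exceeded the controls, Ni_3D 1 by more. Its log2 fold change of 2.19 ± 0.62 missed the threshold (edgeR adjusted p = 0.0674), and it was 1.64 without replicates 1 (adjusted p = 0.310) and 2.87 against controls 3 and 4 (adjusted p = 0.0456). TXNIP was called with DESeq2 (adjusted p = 0.0208). Of 20 heat shock genes and cochaperones tested, 0 were called higher and 3 lower with all libraries, 0 and 1 without replicates 1, and 0 and 3 against controls 3 and 4 (median log2 fold changes -0.44, -0.10 and -0.24). DNAJB4, an Hsp40 cochaperone, was at 13.6 and 6.86 CPM in Ni_3D 1 and 2, against 27.0, 43.3, 35.2 and 26.5 CPM in Control_3D 1 to 4. CRYAB, a small heat shock protein, was at 0.360 and 0.428 CPM in Ni_3D 1 and 2, against 3.10, 1.22, 5.51 and 5.04 CPM in Control_3D 1 to 4. HSPA4, an Hsp110 exchange factor, was at 125 and 194 CPM in Ni_3D 1 and 2, against 268, 293, 360.2 and 288 CPM in Control_3D 1 to 4. All nickel values were below all controls. DNAJB4, CRYAB and HSPA4 had log2 fold changes of -1.69 ± 0.31, -3.21 ± 0.64 and -0.92 ± 0.22 (SE, edgeR adjusted p = 0.0146, 0.0225 and 0.0403). For DNAJB4, CRYAB and HSPA4 the values were -2.37, -3.19 and -0.71 without replicates 1 (adjusted p = 0.0304, 0.129 and 0.207, DNAJB4 called), and -1.60, -3.72 and -1.02 against controls 3 and 4 (adjusted p = 0.0180, 0.00363 and 0.0412, all 3 called). NFKB2 was not called without Ni_3D 2 or Control_3D 2 or 4 (adjusted p up to 0.220). DNAJB4 was not called without Ni_3D 2 (adjusted p up to 0.131). CRYAB was not called without Ni_3D 1 or 2 or Control_3D 3 (adjusted p up to 0.142). HSPA4 was not called without Ni_3D 1 or 2 or Control_3D 2, 3 or 4 (adjusted p up to 0.224). TXNIP was at 1.45 without Ni_3D 1 on the log2 scale.

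The 11 falls called in all 3 fits included the matrix proteins SPARC and POSTN and the actin-severing CFL2 and DSTN, and the 50 rises also held a collagen and an actin-binding protein. These rises were COL27A1, at 82.6 and 97.6 CPM in nickel against 27.4, 22.5, 14.8 and 7.15 CPM in controls (log2 fold changes 2.31, 2.69 and 3.01 in the 3 fits), and SVIL, at 35.4 and 44.0 CPM in nickel against 23.1, 14.4, 10.8 and 10.3 CPM in controls (log2 fold changes 1.43, 1.88 and 1.91 in the 3 fits). SPARC, a matrix glycoprotein that binds collagen, was at 495 and 274 CPM in Ni_3D 1 and 2, against 1442, 1092, 1616 and 1018 CPM in Control_3D 1 to 4. Ni_3D 2 was the lowest and no control overlapped nickel. SPARC had a log2 fold change of -1.75 ± 0.31 (SE, edgeR adjusted p = 0.0128), which was -2.20 without replicates 1 (adjusted p = 0.0431) and -1.78 against controls 3 and 4 (adjusted p = 0.0169). CHRDL1, a secreted antagonist of BMP, was at 8.45 and 3.47 CPM in Ni_3D 1 and 2, against 19.1, 16.7, 30.0 and 27.3 CPM in Control_3D 1 to 4. It too was lowest in Ni_3D 2. CHRDL1 had a log2 fold change of -1.97 ± 0.41 (SE, edgeR adjusted p = 0.0259), which was -2.84 without replicates 1 (adjusted p = 0.0446) and -2.27 against controls 3 and 4 (adjusted p = 0.0150). Cofilin 2 (CFL2) and destrin (DSTN), which both sever actin filaments, were at 31.9 and 17.1 CPM in nickel against 46.0, 77.8, 73.5 and 58.5 CPM in controls, and at 110.4 and 78.4 CPM in nickel against 155, 219.8, 275 and 230.5 CPM in controls. Neither gene had a control as low as the nickel libraries, as the rule for naming the largest falls required. CFL2 and DSTN had log2 fold changes of -1.38 ± 0.31 and -1.22 ± 0.25 (SE, edgeR adjusted p = 0.0318 and 0.0240). For CFL2 and DSTN the values were -2.05 and -1.64 without replicates 1 (adjusted p = 0.0404 and 0.0404, both called), and -1.43 and -1.42 against controls 3 and 4 (adjusted p = 0.0291 and 0.00975, both called).

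POSTN, the matrix protein periostin, was at 0 and 0.0119 CPM in Ni_3D 1 and 2, against 2.81, 4.21, 2.41 and 1.52 CPM in Control_3D 1 to 4. Nickel held 1 read in all, against 288 in the controls. The ratio of nickel to control was 0.00259 with a 95% counting interval of 6.53e-05 to 0.0145 (edgeR adjusted p = 0.00101). It was 0.00404 without replicates 1 (adjusted p = 0.0359) and 0.00340 against controls 3 and 4 (adjusted p = 0.00320). The G protein subunit GNB4 averaged 45.0 CPM in Ni_3D and 115 CPM in Control_3D, the phosphoinositide phosphatase MTMR2 18.3 CPM in Ni_3D and 41.9 CPM in Control_3D, and the retromer subunit VPS29 27.0 CPM in Ni_3D and 57.3 CPM in Control_3D. Nickel and control libraries did not overlap in any of the 3, as the rule for naming the largest falls required. GNB4, MTMR2 and VPS29 had log2 fold changes of -1.35 ± 0.32, -1.19 ± 0.21 and -1.08 ± 0.19 (SE, edgeR adjusted p = 0.0356, 0.0128 and 0.0112). For GNB4, MTMR2 and VPS29 the values were -1.94, -1.52 and -1.36 without replicates 1 (adjusted p = 0.0451, 0.0331 and 0.0452, all 3 called), and -1.60, -1.34 and -1.21 against controls 3 and 4 (adjusted p = 0.0147, 0.00579 and 0.00884, all 3 called). Ni_3D 1 was above Ni_3D 2 in 10 of the 11 falls called in all 3 fits. The choice favours falls that are lowest in Ni_3D 2, the only nickel library of the fit without replicates 1. PDGFRB, a receptor of mesenchymal cells, was at 86.1 and 45.6 CPM in Ni_3D 1 and 2, against 125, 115, 161 and 182 CPM in Control_3D 1 to 4. PDGFRB had a log2 fold change of -1.15 ± 0.28 (SE, edgeR adjusted p = 0.0410), which was -1.76 without replicates 1 (adjusted p = 0.0546) and -1.38 against controls 3 and 4 (adjusted p = 0.0231). Of 38 mesenchymal and matrix genes tested, 0 were called higher and 3 lower with all libraries, 0 and 2 without replicates 1, and 5 and 4 against controls 3 and 4 (median log2 fold changes -0.65, -0.77 and -0.15). Most of the summed fibroblast marker level given above was COL1A1, at 1461 and 533 CPM in nickel against 2449.8, 1910.4, 4361 and 3490.1 CPM in controls, whose log2 fold change of -1.61 was not called (edgeR adjusted p = 0.0708), as -2.63 was not without replicates 1 (adjusted p = 0.0797), while -1.98 against controls 3 and 4 was called (adjusted p = 0.0378). CHRDL1 was not called without Ni_3D 2 or Control_3D 3 or 4 (adjusted p up to 0.165). SPARC, MTMR2 and VPS29 were not called without Ni_3D 2 (adjusted p up to 0.134). CFL2 and PDGFRB were not called without Ni_3D 2 or Control_3D 2, 3 or 4 (adjusted p up to 0.231). GNB4 and DSTN were not called without Ni_3D 1 or 2 or Control_3D 2, 3 or 4 (adjusted p up to 0.217). CHRDL1 was at -2.74 without Ni_3D 1 on the log2 scale.

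DKK1, a secreted inhibitor of Wnt signalling, was at 52.8 and 96.7 CPM in Ni_3D 1 and 2, against 433, 482, 584 and 300.0 CPM in Control_3D 1 to 4. Nickel was below every control. DKK1 had a log2 fold change of -2.59 ± 0.53 (SE, edgeR adjusted p = 0.0243), which was -2.25 without replicates 1 (adjusted p = 0.149) and -2.56 against controls 3 and 4 (adjusted p = 0.0318). Other large falls, called in the all-library fit and against controls 3 and 4, were the bradykinin receptor BDKRB1 at 0.381 and 0.285 CPM in nickel against 3.14, 3.14, 8.19 and 6.21 CPM in controls, the guidance factor SEMA3D at 1.44 and 0.452 CPM in nickel against 8.98, 14.7, 12.9 and 3.40 CPM in controls and the growth factor FGF1 at 1.56 and 0.856 CPM in nickel against 9.61, 11.6, 17.2 and 12.9 CPM in controls. All 3 were low in both nickel libraries. BDKRB1, SEMA3D and FGF1 had log2 fold changes of -3.94 ± 0.70, -3.42 ± 0.70 and -3.42 ± 0.71 (SE, edgeR adjusted p = 0.0128, 0.0243 and 0.0266). The remaining falls were CCDC85A (-3.40, adjusted p = 0.0238), ABI3BP (-2.50, adjusted p = 0.0280), CASC10 (-2.09, adjusted p = 0.0416) and MIRLET7BHG (-2.02, adjusted p = 0.00474), of which ABI3BP is a matrix protein and MIRLET7BHG the host transcript of let-7 microRNAs. Without replicates 1 the 8 lay between -4.53 and -1.98 (adjusted p 0.0667 to 0.178, none called), and against controls 3 and 4 between -4.44 and -1.88 (adjusted p 0.00515 to 0.0415, all 8 called). BDKRB1 was not called without Ni_3D 1 or 2 (adjusted p up to 0.134). SEMA3D, FGF1, CCDC85A and DKK1 were not called without Ni_3D 1 or 2 or Control_3D 2 or 3 (adjusted p up to 0.170). ABI3BP was not called without Ni_3D 1 or 2 or Control_3D 4 (adjusted p up to 0.172). CASC10 was not called when any 1 library was left out (adjusted p up to 0.202). MIRLET7BHG was not called without Ni_3D 2 (adjusted p up to 0.0699). SEMA3D was at -4.46 without Ni_3D 1 and -2.81 without Ni_3D 2 on the log2 scale.

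The interferon-stimulated genes OAS1 and OAS2 fell, and the list as a whole had a negative median. OAS2, an antiviral oligoadenylate synthetase, was at 3.08 and 1.27 CPM in Ni_3D 1 and 2, against 12.1, 14.1, 45.9 and 14.2 CPM in Control_3D 1 to 4. Its relative OAS1 was at 2.68 and 1.08 CPM in Ni_3D 1 and 2, against 6.11, 6.91, 19.6 and 7.85 CPM in Control_3D 1 to 4. Control_3D 3 stood above the other controls in both, and nickel was below all 4. OAS2 and OAS1 had log2 fold changes of -3.32 ± 0.71 and -2.44 ± 0.62 (SE, edgeR adjusted p = 0.0289 and 0.0463). For OAS2 and OAS1 the values were -4.30 and -3.43 without replicates 1 (adjusted p = 0.0784 and 0.0942, neither called), and -3.81 and -2.90 against controls 3 and 4 (adjusted p = 0.0131 and 0.0241, both called). Of 37 interferon-stimulated genes tested, 0 were called higher and 2 lower with all libraries, 0 and 0 without replicates 1, and 0 and 6 against controls 3 and 4 (median log2 fold changes -0.85, -1.25 and -1.06). The summed level of the list was 1081 and 825 CPM in the nickel libraries and from 1217 to 2038 CPM in the controls. Ni_3D 1 was above Ni_3D 2 in 31 of the 37 genes. OAS2 was not called without Ni_3D 1 or 2 or Control_3D 2 (adjusted p up to 0.176). OAS1 was not called without Ni_3D 1 or 2 or Control_3D 2, 3 or 4 (adjusted p up to 0.237). OAS2 was at -4.08 without Ni_3D 1 and -2.65 without Control_3D 3 on the log2 scale. OAS1 was at -3.23 without Ni_3D 1 on the log2 scale.

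Fatty acid synthesis, oxidative phosphorylation and replication genes had negative medians. With all libraries 1 of 10, 2 of 30 and 2 of 39 were called lower, against 1.51% of all genes tested. HMGCS1, an enzyme of cholesterol synthesis, was at 31.5 and 22.5 CPM in nickel against 62.5, 72.6, 32.3 and 32.5 CPM in controls. The controls again fell into pairs, and the nickel values lay below the lower pair. It was not called (log2 fold change -0.89, edgeR adjusted p = 0.210), nor was it at -1.04 without replicates 1 (adjusted p = 0.375) and -0.26 against controls 3 and 4 (adjusted p = 0.697). Fatty acid synthase FASN was at 388 and 532 CPM in nickel against 835, 789, 968 and 953 CPM in controls. The respiratory subunits ATP5A1 and SDHD were at 234 and 276 CPM in nickel against 429, 424, 398 and 389 CPM in controls, and at 13.6 and 15.5 CPM in nickel against 20.8, 27.4, 31.5 and 31.2 CPM in controls. No control was as low as nickel in these 3 genes. FASN, ATP5A1 and SDHD had log2 fold changes of -0.95 ± 0.24, -0.68 ± 0.17 and -0.93 ± 0.20 (SE, edgeR adjusted p = 0.0437, 0.0441 and 0.0291). For FASN, ATP5A1 and SDHD the values were -0.78, -0.57 and -0.97 without replicates 1 (adjusted p = 0.227, 0.244 and 0.0984, none called), and -1.06, -0.63 and -1.10 against controls 3 and 4 (adjusted p = 0.0442, 0.0937 and 0.0122, FASN and SDHD called). Of 30 nuclear-encoded respiratory genes tested, 0 were called higher and 2 lower with all libraries, 0 and 0 without replicates 1, and 0 and 3 against controls 3 and 4 (median log2 fold changes -0.35, -0.25 and -0.43). Of these 30 genes 27 had a negative log2 fold change, and in 15 both nickel libraries were below all controls, against 18.1% of all genes tested. FASN and ATP5A1 were not called when any 1 library was left out (adjusted p up to 0.226). SDHD was not called without Ni_3D 1 or 2 or Control_3D 2, 3 or 4 (adjusted p up to 0.149).

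MKI67, a marker of cycling cells, was at 772 and 841 CPM in Ni_3D 1 and 2, against 738, 567, 535 and 493 CPM in Control_3D 1 to 4. Nickel lay slightly above the controls, and its log2 fold change of 0.47 was not called (edgeR adjusted p = 0.255), nor was it at 0.64 without replicates 1 (adjusted p = 0.301) and 0.65 against controls 3 and 4 (adjusted p = 0.168). MCM5, a subunit of the replicative helicase, and cyclin A2 (CCNA2) averaged 164 CPM in Ni_3D and 316 CPM in Control_3D, and 87.3 CPM in Ni_3D and 146 CPM in Control_3D. Both were lower in each nickel library than in any control. They fell by 0.94 and 0.74 on the log2 scale (edgeR adjusted p = 0.0176 and 0.0437). For MCM5 and CCNA2 the values were -1.18 and -0.96 without replicates 1 (adjusted p = 0.0667 and 0.102, neither called), and -1.05 and -0.88 against controls 3 and 4 (adjusted p = 0.0168 and 0.0304, both called). Of 39 cell cycle and replication genes tested, 0 were called higher and 2 lower with all libraries, 0 and 0 without replicates 1, and 0 and 2 against controls 3 and 4 (median log2 fold changes -0.14, -0.10 and -0.11). Of 28 ribosomal protein genes tested, 0 were called higher and 0 lower with all libraries, 0 and 0 without replicates 1, and 0 and 0 against controls 3 and 4 (median log2 fold changes 0.11, 0.34 and 0.01). Ni_3D 2 was above Ni_3D 1 in all 28 of them, and Ni_3D 1 above Ni_3D 2 in only 3 of 30 respiratory genes and 3 of 26 p53 targets. MCM5 was not called without Ni_3D 2 (adjusted p up to 0.145). CCNA2 was not called without Ni_3D 1 or 2 or Control_3D 2, 3 or 4 (adjusted p up to 0.219).

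Of the clock list, 2 genes rose and 1 fell in all 3 fits, and the clock repressor BHLHE41, which is not in the list, rose in all 3 as given above. CIART, a repressor of the clock, was at 23.8 and 22.9 CPM in Ni_3D 1 and 2, against 3.79, 4.02, 1.42 and 2.34 CPM in Control_3D 1 to 4. NPAS2, a partner of ARNTL, was at 7.89 and 9.01 CPM in Ni_3D 1 and 2, against 2.52, 1.81, 0.842 and 1.05 CPM in Control_3D 1 to 4. NR1D2, the nuclear receptor REV-ERB beta, was at 25.6 and 20 CPM in Ni_3D 1 and 2, against 44.9, 63.4, 66.3 and 50.0 CPM in Control_3D 1 to 4. Each separated nickel from control with no overlap. CIART, NPAS2 and NR1D2 had log2 fold changes of 3.0 ± 0.37, 2.4 ± 0.41 and -1.30 ± 0.21 (SE, edgeR adjusted p = 0.00140, 0.0112 and 0.00879). For CIART, NPAS2 and NR1D2 the values were 3.12, 2.84 and -1.60 without replicates 1 (adjusted p = 0.0304, 0.0359 and 0.0359, all 3 called), and 3.68, 3.18 and -1.36 against controls 3 and 4 (adjusted p = 0.00147, 0.00329 and 0.00750, all 3 called). Of 14 clock genes tested, 2 were called higher and 1 lower with all libraries, 2 and 1 without replicates 1, and 3 and 1 against controls 3 and 4 (median log2 fold changes 0.61, 0.39 and 0.63). Of growth factor genes, TGFA, a ligand of the EGF receptor, was at 5.05 and 9.58 CPM in nickel against 1.96, 1.37, 1.53 and 0.937 CPM in controls, and IGFBP4, a binding protein of insulin-like growth factors, at 211 and 269 CPM in nickel against 155, 128, 109 and 96.0 CPM in controls. Ni_3D 2 was the higher in both. TGFA and IGFBP4 had log2 fold changes of 2.30 ± 0.43 and 0.98 ± 0.20 (SE, edgeR adjusted p = 0.0164 and 0.0240). For TGFA and IGFBP4 the values were 2.86 and 1.26 without replicates 1 (adjusted p = 0.0513 and 0.0397, IGFBP4 called), and 2.52 and 1.23 against controls 3 and 4 (adjusted p = 0.0252 and 0.00881, both called). Of 33 histone and DNA methylation enzymes, the demethylase KDM7A was the only one called in the all-library fit, at 12.8 and 12.8 CPM in nickel against 4.30, 5.0, 3.63 and 4.22 CPM in controls (log2 fold change 1.58, edgeR adjusted p = 0.0493), and 0 were called in the other 2 fits, where KDM7A was at 1.56 and 1.71. The list's median log2 fold changes were 0.05, 0.12 and 0.18 in the 3 fits. Among all genes tested 2.83% were called higher with all libraries, so 1 call in this list is no result about the list. NPAS2 and NR1D2 were not called without Ni_3D 2 (adjusted p up to 0.112). TGFA was not called without Ni_3D 2 or Control_3D 2 or 3 (adjusted p up to 0.158). IGFBP4 was not called without Ni_3D 1 or 2 or Control_3D 2, 3 or 4 (adjusted p up to 0.165). KDM7A was not called when any 1 library was left out (adjusted p up to 0.186).

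The epithelial and mesenchymal genes depended on which controls were used. ZEB1, a transcription factor that represses epithelial genes, was at 13.2 and 14.5 CPM in Ni_3D 1 and 2, against 11.9, 12.4, 1.03 and 1.76 CPM in Control_3D 1 to 4. Nickel matched Control_3D 1 and 2 and stood above Control_3D 3 and 4. ZEB1 had a log2 fold change of 1.0 ± 0.71 (SE, edgeR adjusted p = 0.410), which was 1.48 without replicates 1 (adjusted p = 0.424) and 3.38 against controls 3 and 4 (adjusted p = 0.00185). FN1, the matrix protein fibronectin, was at 1100.5 and 692 CPM in Ni_3D 1 and 2, against 3184, 3109, 159 and 102 CPM in Control_3D 1 to 4. Nickel lay between the control pairs. Its log2 fold change was -0.87 ± 1.11 (SE, edgeR adjusted p = 0.664), and -0.71 without replicates 1 (adjusted p = 0.841) and 2.78 against controls 3 and 4 (adjusted p = 0.00200), with the sign reversed in the last. Claudin 3 (CLDN3), a tight junction protein, and LAMB3, a chain of basement membrane laminin, were at 11.3 and 6.5 CPM in nickel against 3.97, 3.18, 2.72 and 1.76 CPM in controls, and at 82.5 and 142 CPM in nickel against 34.4, 43.1, 68.5 and 49.3 CPM in controls. No control reached the nickel range. CLDN3 and LAMB3 had log2 fold changes of 1.59 ± 0.38 and 1.2 ± 0.29 (SE, edgeR adjusted p = 0.0372 and 0.0410). For CLDN3 and LAMB3 the values were 1.31 and 1.38 without replicates 1 (adjusted p = 0.193 and 0.0900, neither called), and 1.96 and 0.92 against controls 3 and 4 (adjusted p = 0.0305 and 0.105, CLDN3 called). Of 15 EMT transcription factors tested, 0 were called higher and 0 lower with all libraries, 0 and 0 without replicates 1, and 4 and 0 against controls 3 and 4 (median log2 fold changes 0.40, 0.74 and 1.43). Of 30 epithelial genes tested, 2 were called higher and 0 lower with all libraries, 0 and 0 without replicates 1, and 5 and 0 against controls 3 and 4 (median log2 fold changes 0.78, -0.04 and 0.91). The luminal transcripts of Ni_3D 1 and Control_3D 1 include members of the epithelial list, among them E-cadherin (CDH1) at 29.2 and 0.0594 CPM in nickel against 11.4, 0.245, 0.421 and 0.117 CPM in controls. The median of the list was -0.04 without those libraries. CLDN3 was not called without Ni_3D 1 or 2 or Control_3D 2, 3 or 4 (adjusted p up to 0.229). LAMB3 was not called without Ni_3D 1 or 2 or Control_3D 1, 2 or 4 (adjusted p up to 0.308).

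**Figure D4:**
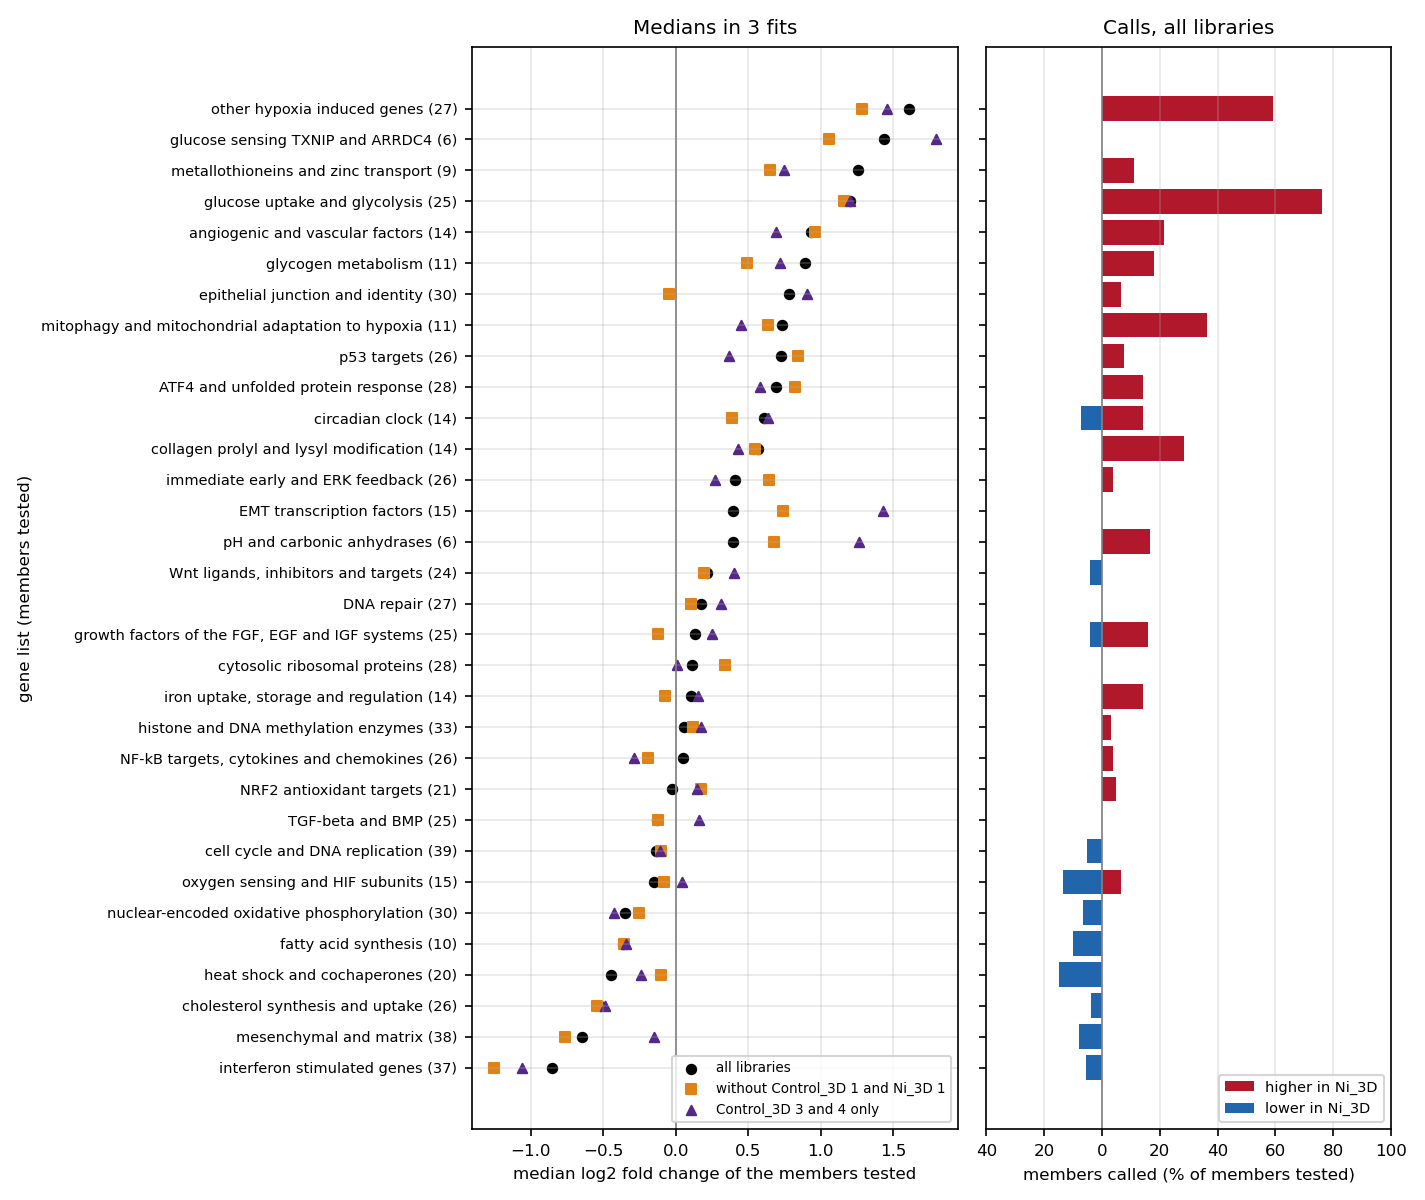
Left, median log2 fold change of the tested members of 32 gene lists in the 3 fits. Right, percent of the tested members called higher (red) or lower (blue) in Ni_3D in the all-library fit. Glycolysis has 19 of 25 members called higher and other hypoxia-induced genes 16 of 27.

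Of 10 fatty acid synthesis genes tested, 0 were called higher and 1 lower with all libraries, 0 and 0 without replicates 1, and 0 and 1 against controls 3 and 4 (median log2 fold changes -0.36, -0.35 and -0.34). Of 21 NRF2 targets tested, 1 was called higher and 0 lower with all libraries, 0 and 0 without replicates 1, and 1 and 0 against controls 3 and 4 (median log2 fold changes -0.03, 0.18 and 0.14). The median of this list was 0.04 with upper-quartile scaling. Of 24 Wnt genes tested, 0 were called higher and 1 lower with all libraries, 0 and 0 without replicates 1, and 2 and 1 against controls 3 and 4 (median log2 fold changes 0.22, 0.20 and 0.40). Of 25 growth factor genes tested, 4 were called higher and 1 lower with all libraries, 1 and 0 without replicates 1, and 7 and 2 against controls 3 and 4 (median log2 fold changes 0.13, -0.12 and 0.25). Of 27 DNA repair genes tested, 0 were called higher and 0 lower with all libraries, 0 and 0 without replicates 1, and 2 and 0 against controls 3 and 4 (median log2 fold changes 0.17, 0.11 and 0.31). Of 25 TGF-beta and BMP genes tested, 0 were called higher and 0 lower with all libraries, 0 and 0 without replicates 1, and 0 and 0 against controls 3 and 4 (median log2 fold changes -0.13, -0.12 and 0.16). Of 6 genes of the TXNIP list tested, 0 were called higher and 0 lower with all libraries, 0 and 0 without replicates 1, and 2 and 0 against controls 3 and 4 (median log2 fold changes 1.44, 1.06 and 1.79). Of all genes tested, 2.83% were called higher and 1.51% lower with all libraries, and 5.33% and 2.21% against controls 3 and 4. In 5 lists edgeR called 0 genes with all libraries. At an unadjusted p under 0.05 it gave 0 of the 28 ribosomal protein genes, 2 of the 15 EMT transcription factors, 7 of the 27 DNA repair genes, 4 of the 25 TGF-beta and BMP genes and 3 of the 6 genes of the TXNIP list. These counts are to be read against 3633 of all 14927 genes tested. DESeq2 called 0, 0, 2, 2 and 3 of them in the same order, and 1881 of all 14927 genes tested.

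Set against the rest of the study, both nickel libraries were above all 12 other libraries that are not clones in 1086 genes (7.28% of those tested) and below all 12 in 888 (5.95%). Those 12 include cells exposed to nickel for longer or washed free of it. Of the 50 rises called in all 3 fits 44 were among the 1086, and of the 11 falls 10 were among the 888. Since the 4 controls are among the 12 libraries, this is a description and no test.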

How the data were processed

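BEAS-2B RNA was extracted on RNeasy columns and made into libraries with a TruSeq RNA kit, per the labels' protocols. The authors deposited raw read counts of 25411 RefSeq genes for each library, without normalisation. STAR 2.4, DESeq, DESeq2, GRCh37 and hg19 are named in the submitters' processing notes. The counting method, its treatment of reads with several matches and the strand are not given in the sources used, so overlapping genes and near-identical copies cannot be told apart. Depths of the 6 libraries ran from 8609243 to 88848786 reads, and intervals cover counting error only.

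RefSeq identifiers were used to join libraries, because 28 gene symbols were altered in 2 other libraries. All 14 libraries except the clones entered 1 edgeR 4.0.16 model in R 4.3.3, with a mean for every group, so that the 2 nickel libraries share an estimate of the spread (biological coefficient of variation 29.7%). Genes were kept by filterByExpr (count of at least 10, total of at least 15), which left 14927. Libraries were scaled by TMM and tested by the robust quasi-likelihood F test. Adjusted p-values are Benjamini-Hochberg values over all 14927 genes, and genes under 0.05 were called. Standard errors were derived from the fold change and its F statistic. Each fit with libraries left out kept the same 14927 genes. Alternatives were DESeq2 1.42.0, RLE and upper-quartile scaling, no filter, a fit of the 6 libraries alone and the replicate number as a block. The fits were tested on simulated counts with 100 genes changed 2-fold and 100 changed 4-fold. Every simulated gene had the same spread, and every group was set to the Control_3D mean. Fewer genes were changed than were called in the real data, and the adjusted p depends on that number. The shares found may therefore be higher or lower than in the real data.

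The comparison, the 32 process and 8 marker lists and the rule for names were chosen with earlier results of these data known. Named were 25 set genes of oxygen sensing, metal response, stress and epithelial state, the 10 largest rises and falls (at least 5 CPM, libraries not overlapping) called in all 3 fits, the next 10 called with all libraries and against controls 3 and 4, and up to 3 called members of a list. The glycolysis list is given in full. Of the set genes 1, and the list that holds it, are not reported here. ESR1, GATA3, GREB1, AGR2, KRT8, KRT18, CDH1, COL1A1, IGFBP3, COL27A1, SVIL, KRT17, ITGA6, TUBB4B, ABCA3, CD14 and CD68 were named after their values were seen. For a gene without reads in a group a floor of 3 reads in that group was used, and for 1 to 3 reads a ratio with an exact 95% interval. The authors' RPKM values and comparison tables and the clones were not used here.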

Additional observations from a re-analysis of the deposited data

Results flagged for a closer look

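Among the 99 genes looked at, 4 had a control library whose distance to the nearest of the other 3 was too large a part of the range by Dixon's test for 4 samples at the 95% level. Chance gives such a gap in about 1 in 20 groups. DDIT4, the mTORC1 inhibitor, was at 72.7 CPM in Control_3D 4, and at 16.2 to 25.0 CPM in the other controls. The interferon-stimulated genes OAS1 and OAS2 were at 19.6 and 45.9 CPM in Control_3D 3, against 6.11 to 7.85 CPM and 12.1 to 14.2 CPM in the other controls. TMEM45A was at 3.63 CPM in Control_3D 3, against 2.60 to 2.70 CPM in the other controls. Both nickel libraries lay beyond these high controls, above them for DDIT4 and TMEM45A and below all controls for OAS1 and OAS2.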

How the results depend on the processing

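With all libraries 647 genes were called. The total was 74 without replicates 1 (59 higher, 15 lower), 1126 against controls 3 and 4 (796 higher), 121 against Control_3D 1 and 2 (93 higher, 28 lower), 1881 with DESeq2 (923 higher, 958 lower) and 1332 with the replicate number as a block (857 higher, 475 lower). Upper-quartile scaling gave 147 lower. Leaving out 1 library gave totals of 60 to 621, with 58 to 386 higher and 2 to 235 lower. The totals were 145 without Ni_3D 1, 60 without Ni_3D 2, 138 without Control_3D 2, 137 without Control_3D 3 and 226 without Control_3D 4. The fit without Control_3D 1, which holds as many libraries as each of these, gave 621. The cause of these differences was not tested. The totals with RLE size factors (638), with only the 6 libraries fitted (771) and without a filter (581) were within 1.5 times the first. The labels do not say that a replicate number marks a shared culture or batch. Deviations from the group means correlated at 0.23 for the libraries numbered 1 and at -0.11 for those numbered 2, but with 2 nickel libraries the deviations mirror each other, so this cannot test pairing. With the block, in which Control_3D 3 and 4 have no nickel partner, 8 of 16 named genes not called with all libraries were called (HIF1A at -1.21, EGLN1, SLC2A1, MT1X, HMOX1, TXNIP, HMGCS1 and FN1), and calls ended for 5 of the 83 others. Of 99 named genes 83 were called, and none of these changed sign under any of 15 alternatives. Nickel and control libraries did not overlap in nearly all called genes, so a kept sign adds little. Calls ended for 56 of the 83 without Ni_3D 2, 41 without Ni_3D 1 and 11 without Control_3D 1, while 22 were called whichever 1 library was left out. Signs reversed for 4 genes that were not called with all libraries: HIF1A (0.42) and FN1 (2.78) against controls 3 and 4, and SLC30A1 (-0.010, with 0.62 without Ni_3D 1) and CDKN1A (-0.047, with 2.11 without Ni_3D 1) without Ni_3D 2. Low genes are limited by the depth of Control_3D 4, and no dose is given.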
